A study of Mus musculus with 8 samples.

Results

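Vascular leptomeningeal cells (VLMCs) were the nuclei that the deposited cell table assigns to the type VLMC, and they numbered 360 of 102330 nuclei dissected from V1, the primary visual cortex, of mice aged 21 postnatal days (P21). All animals were GRfl/fl, so that Cre could delete the glucocorticoid receptor (GR) gene Nr3c1, and all received at birth an AAV2/5 vector driven by the astrocyte promoter GfaABC1D. GR-KO animals were given Cre and GR-Con animals were given ΔCre, which cannot recombine, each joined by a self-cleaving peptide to membrane-targeted EGFP. Animals of both genotypes were normally reared (NR) or dark reared (DR), with 1 male and 1 female library from separate animals in each of the 4 groups. The promoter and the 4x6T element of the vector aim expression at astrocytes, so VLMCs shared the rearing and the vector injection but were not the cells in which Nr3c1 was to be deleted. V1 was frozen before nuclei were released, and nuclei were sorted by the DNA dye DRAQ5 and, per the study's methods, for absence of GFP signal.

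VLMC nuclei numbered 31 and 37 in the NR GR-Con female and male libraries and 47 and 20 in NR GR-KO female and male. They numbered 3 and 104 in DR GR-Con female and male, and 65 and 53 in DR GR-KO female and male. Groups were compared only with libraries of at least 10 VLMC nuclei, so the DR GR-Con female library was left out and DR GR-Con was represented by 1 library, which was assumed to vary as the others do. The DR GR-Con female library also held 5 endothelial nuclei, 1 mural nucleus and 4 microglia among 13813 nuclei. The NR GR-Con male and NR GR-KO male libraries held 2 and 4 microglia, while the other 5 libraries held 573 to 948. Summed VLMC UMIs (unique transcript molecules) ran from 191053 to 717380 in the 7 libraries compared and the median UMIs per VLMC nucleus from 3656 to 11020. Of the 360 barcodes, 5 occurred in another library and 0 in another VLMC nucleus.

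VLMCs are fibroblast-like cells of the pia, the arachnoid and the spaces around blood vessels that enter the cortex. They lay down the basement membrane on which astrocyte endfeet rest, secrete collagens and signalling proteins, make retinoic acid that acts on the growing cortex, and carry transporters that move organic anions, amino acids and nucleosides between blood, cerebrospinal fluid and brain. Glucocorticoids act on fibroblasts in many tissues, where they restrain matrix and inflammatory genes and raise a small set of direct target genes.

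The label matched the defining genes. All 14 genes of a VLMC marker list had their highest level in VLMCs among all deposited types, with a summed level of 8729 CPM (UMIs scaled to the same total in every type or library) against 1016 in mural cells (SMC-Peri) and 232 in endothelial cells (Endo). Dcn, the collagen-binding proteoglycan decorin, was at 139 CPM (55.2 to 266 over the 7 libraries) and its next highest type, L5IT neurons, at 3.82 CPM. Col1a1 and Col1a2, which form type I collagen, were at 67.4 and 201 CPM, with 34.0 to 120.5 and 117 to 433 over libraries. Slc6a13, a transporter of GABA and taurine, was at 494 CPM (296 to 839) and at 20.3 CPM in mural cells. A Slc6a13 UMI was found in 317 of 360 VLMC nuclei (88.1%; exact 95% interval 84.3 to 91.2), in 10.0% of mural, 1.50% of endothelial and 0.0633% of astrocyte nuclei, at median depths of 4362, 2924, 3395 and 6107 UMIs. With every nucleus thinned to 1000 UMIs, these shares were 46.9%, 3.43%, 0.410% and 0.00899%. Detection differed between markers. Cped1 had a UMI in 98.9% of VLMC nuclei, Col1a2 in 63.1%, Dcn in 48.3%, Col1a1 in 35.0% and Lum in 5.0%. Of 10 VLMC genes counted per nucleus, at least 3 had a UMI in 357 of 360 nuclei. Because the deposited types came from clustering of the same counts, none of these levels is a test. Intervals on shares of nuclei cover counting error only.

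The 30 genes that set VLMCs furthest apart from every other type included transporter, matrix, enzyme and signalling genes, transcription regulators such as Prdm6 and Bnc2, and unnamed transcripts such as Gm6209. Of 3852 genes with at least 50 CPM and a UMI in at least 10% of VLMC nuclei, 61 were at 4-fold or more and 33 at 10-fold or more over the next highest type. Slc13a4, a sulfate transporter, led this order with 280 CPM (199 to 433 over libraries) against 0.977 CPM in endothelial cells, and had a UMI in 70.3% of VLMC nuclei. Slc22a6, the organic anion transporter OAT1, followed with 93.4 CPM against 0.354 CPM in microglia. Svep1, a large adhesion protein of the matrix, was at 222 CPM against 1.51 CPM in OPCs. Aldh1a2, which makes retinoic acid, was at 287 CPM (159 to 484) against 2.28 CPM in endothelial cells, with a UMI in 72.5% of VLMC nuclei, 1 of 399 endothelial and 0 of 180 mural nuclei. Ptgds, which makes prostaglandin D2 and carries lipids in cerebrospinal fluid, was at 2429 CPM against 44.0 CPM in endothelial cells. Bmp6, a secreted BMP ligand, was at 1364 CPM against 46.9 CPM in L5NP neurons, Lepr, the leptin receptor, at 261 CPM against 18.3 CPM in L4 neurons, and Eya2, a transcriptional co-activator, at 357 CPM against 29.3 CPM in oligodendrocytes. The next highest type was endothelial for 10 of the 30 genes highest in this order and mural for 2. With libraries weighted equally 29 of the 30 genes were again among the 30 highest, and 21 were when only nuclei with few neuron transcripts, defined further on, were ranked.

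**Figure D1:**
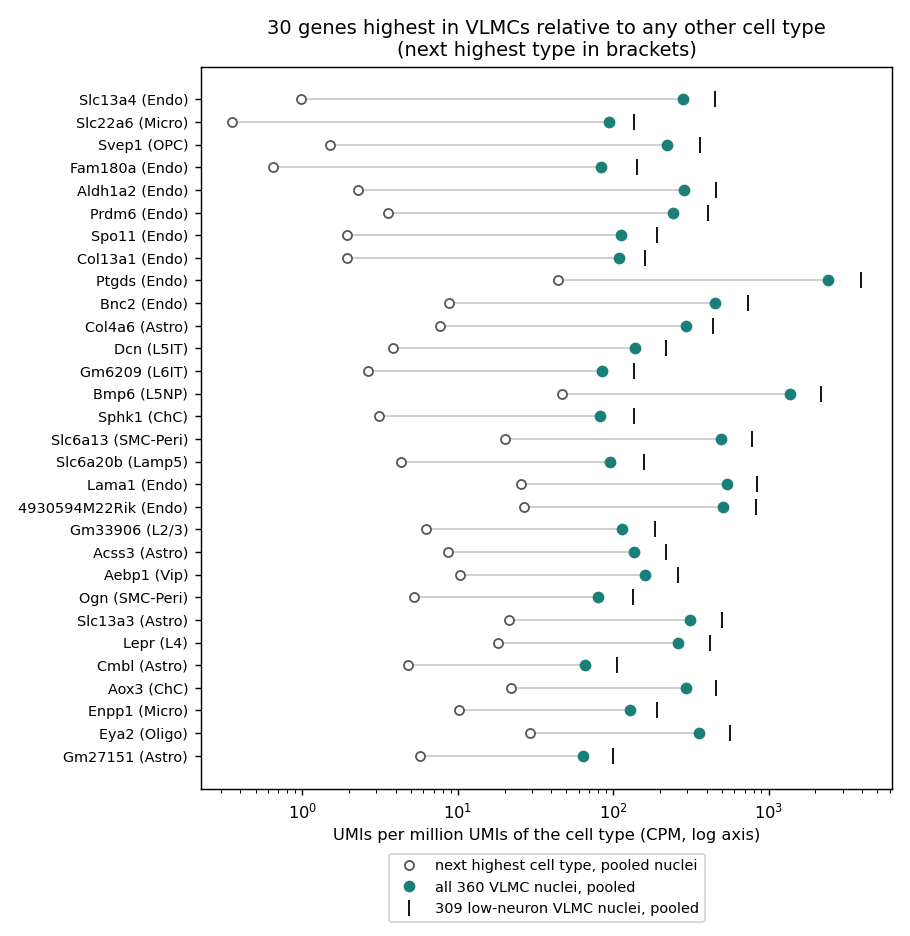
Level of the 30 genes with the highest ratio of VLMC level to that of any other cell type, on a log axis of CPM. Filled circles are all 360 VLMC nuclei pooled, vertical bars the 309 VLMC nuclei with few neuron transcripts, and open circles the next highest type, named in brackets; Slc13a4 at the top stands at 280 CPM against 0.977 CPM in endothelial cells.

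To show where transcription of these genes begins, the 250 bases before the RefSeq start of 3 of them follow, 5′ to 3′ on the gene's strand, build GRCm38.p6, from Slc13a4 (chr6:35308127-35308376, minus strand), Slc22a6 (chr19:8617746-8617995, plus strand) and Aldh1a2 (chr9:71215539-71215788, plus strand). They were chosen as the 2 transporters and the retinoic acid enzyme among the 5 leading genes. Capitals mark the CCAAT box, CCAAT or ATTGG on the other strand, of which Slc13a4 and Slc22a6 hold 3 each and Aldh1a2 holds 1.
Slc13a4: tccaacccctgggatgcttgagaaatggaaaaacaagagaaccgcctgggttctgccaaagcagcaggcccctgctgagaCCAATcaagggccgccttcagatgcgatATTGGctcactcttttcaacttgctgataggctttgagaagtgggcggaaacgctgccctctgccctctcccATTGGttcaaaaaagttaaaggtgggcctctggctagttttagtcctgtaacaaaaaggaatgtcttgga
Slc22a6: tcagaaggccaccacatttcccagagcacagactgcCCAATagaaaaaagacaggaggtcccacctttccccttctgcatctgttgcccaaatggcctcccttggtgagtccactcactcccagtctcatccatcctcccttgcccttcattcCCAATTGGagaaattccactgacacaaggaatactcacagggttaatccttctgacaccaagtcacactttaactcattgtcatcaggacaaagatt
Aldh1a2: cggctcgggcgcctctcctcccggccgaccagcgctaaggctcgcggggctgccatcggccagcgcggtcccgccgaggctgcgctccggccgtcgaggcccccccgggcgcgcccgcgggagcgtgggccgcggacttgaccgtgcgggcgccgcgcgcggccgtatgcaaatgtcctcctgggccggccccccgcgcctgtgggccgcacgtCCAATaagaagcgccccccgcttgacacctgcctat
Of the 30 genes, 24 had such a window in the RefSeq table. CCAAT stood in 7 of them (29.2%) and in 9314 of all 27025 promoters of the same length (34.5%). TATAAA stood in 4 (16.7%) and in 3504 of all promoters, and the forkhead core TGTTTA in 2 (8.33%) and in 3251 of all, both strands searched. A match is a description of letters only.

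Matrix genes divided VLMCs from the vessel wall by chain. Unless stated, levels and counts of genes highest in VLMCs, here and in the lists that follow, are of all 360 nuclei. In the 309 with few neuron transcripts, laminins and related genes summed to 2987 CPM against 1971 in all. Meningeal transporters summed to 11570 against 7515 CPM and retinoic acid genes to 1339 against 836 CPM. Genes near the level of another type can therefore rank otherwise there. Of the basement membrane collagens, the paired X-linked genes Col4a5 and Col4a6 were at 293 and 295 CPM, highest in VLMCs, against 48.3 and 7.70 CPM in astrocytes, the next type. Col4a1 and Col4a2, which form the common collagen IV trimer, were at 76.3 and 77.0 CPM, under the 276 and 257 CPM of endothelial cells. Among laminins, Lama1, the alpha chain of embryonic and pial basement membrane, was at 538 CPM (238 to 929) against 25.7 CPM in endothelial cells. Lama2 stood at 629 CPM beside 717 CPM in astrocytes and 444.5 CPM in mural cells, and Lama4 at 260 CPM beside 258 CPM in endothelial cells. Of 12 fibrillar and fibril-associated collagens 4 were highest in VLMCs, of 13 basement membrane and network collagens 6, of 13 laminins, nidogens and basement membrane proteoglycans 2, and of 24 other matrix proteoglycans and glycoproteins 12. The last group included Efemp1, a fibulin (99.4 CPM against 13.9 CPM in astrocytes), Ogn, osteoglycin (80.2 against 5.26 CPM in mural cells), and Fbln5, an elastic-fibre protein (47.9 against 2.08 CPM in Pvalb neurons). Of 18 matrix proteases and inhibitors 8 were highest in VLMCs, among them Timp3, a metalloprotease inhibitor (360.3 CPM against 135 CPM in astrocytes), and Adamts12 (233 against 25.1 CPM in Sst neurons).

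Of 27 transporters listed for the meninges, 9 were highest in VLMCs and others were shared with a neighbouring type. Slc6a20a, a proline transporter, was at 1718 CPM against 641 CPM in mural cells, and Slc7a11, the cystine-glutamate exchanger, at 1280 CPM against 573 CPM in astrocytes. Slc13a3, a dicarboxylate carrier, was at 313 CPM against 21.5 CPM in astrocytes. Slc22a8, the organic anion transporter OAT3, was at 247 CPM beside 296 CPM in endothelial cells. Abcg2, an efflux pump of the blood-brain barrier, was lower at 57.9 CPM against 485 CPM in endothelial cells, and the glutamate transporter Slc1a3 at 1102 CPM against 2823 CPM in astrocytes.

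For retinoic acid, 8 of 16 listed genes were highest in VLMCs, and the summed level was 836 CPM against 132 in endothelial and 159 in mural cells. Aldh1a1, a second enzyme of its synthesis, was shared with astrocytes, at 191 CPM beside 256 CPM. Rarb, a receptor that retinoic acid itself raises, was at 157 CPM against 94.6 CPM in Pvalb neurons, and Cyp26b1, which breaks retinoic acid down, at 22.4 CPM (0 to 86.8 over libraries) against 1.84 CPM in OPCs. Of 24 measured transcription factors of meningeal fibroblasts, 16 were highest in VLMCs. Bnc2 was at 449 CPM against 8.79 CPM in endothelial cells, while the pericyte-shared factors stood closer, with Tbx18 at 129.5 against 60.1 CPM and Zic1 at 197 against 138 CPM in mural cells. Of 24 BMP and TGF-beta genes 4 were highest in VLMCs, among them Bmp6, Bmp7 (161 against 55.3 CPM in OPCs) and the co-receptor Tgfbr3 (399 against 128 CPM in endothelial cells). Wnt5a was at 103 CPM against 25.1 CPM in Vip neurons, and Wnt6 at 18.5 CPM against 0.540 CPM in OPCs. Pdgfra, a fibroblast receptor, was at 133.5 CPM, under the 603 CPM of OPCs, and Pdgfrb at 128 CPM, under the 580.4 CPM of mural cells. The chemokine gene Cxcl12 was at 72.4 CPM against 893 CPM in endothelial cells. In the other lists, VLMCs had the highest level of 3 of 11 insulin-like growth factor genes, 6 of 16 WNT genes, 2 of 15 PDGF and FGF genes, 2 of 20 chemokine and immune genes and 4 of 11 prostaglandin genes. The same held for 0 of 8 steroid receptor and steroid-activating genes, 0 of 18 immediate early genes and 3 of 18 clock genes.

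Pial and arachnoid genes were detected in the same nuclei, and 2 of 6 pial and 6 of 10 arachnoid genes were highest in VLMCs. Among the 309 VLMC nuclei with few neuron transcripts, Lama1 and the arachnoid-associated Aldh1a2 both had a UMI in 193 (62.5%), where the product of their separate shares was 62.3%. Slc47a1, a transporter of the arachnoid barrier, had a UMI in 2 of these nuclei. Col1a2 and Slc6a13 were found together in 172 (55.7%, product of shares 56.7%), and Slc13a4 and Slc22a6 in 91 (29.4%, product 27.2%). The summed level of 6 dural genes was 53.6 CPM, beside 58.3 CPM in endothelial and 84.1 CPM in mural cells, with Foxc2 at 13.1 CPM and Dkk2 at 0.355 CPM. Markers of microglia and of the vessel wall were low, while 10 neuron markers summed to 8074 CPM and are described further on: 9 microglia and macrophage markers summed to 68.9 CPM, 8 mural markers to 59.3 CPM (Kcnj8 and Higd1b at 0 UMIs) and 8 endothelial markers to 271 CPM against 8037 CPM in endothelial cells, with Cldn5 at 2.48 CPM. Markers of astrocytes (8 genes) and of the oligodendrocyte lineage (8 genes) summed to 1271 and 697 CPM.

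Vector transcripts were found in few VLMC nuclei. EGFP had a UMI in 1 of 175 GR-Con VLMC nuclei (0.571%) and in 0 of 185 GR-KO VLMC nuclei, which allows a share of nuclei with a UMI of up to 1.62% (3 counts; the exact 95% limit is 1.97%), while the shares in astrocytes were 6.40% and 8.25%. Cre had a UMI in 2 of 185 GR-KO VLMC nuclei (1.08%, exact 95% interval 0.131 to 3.85), 1 each in the NR and DR male libraries, in 0 of 175 GR-Con VLMC nuclei and in 4.59% of GR-KO astrocytes. In oligodendrocytes, taken as a type without the vector's promoter, the GR-KO share of Cre was 0.149%, and in GR-KO endothelial and mural nuclei it was 0 of 180 and 0 of 93. EGFP had a UMI in 1.11% of GR-KO endothelial nuclei. The delCre feature had a UMI in 1 GR-KO VLMC nucleus and 0 GR-Con VLMC nuclei, and in 2.22% of endothelial, 2.15% of mural and 2.93% of astrocyte nuclei of GR-KO against 2.03% of GR-Con astrocytes, so it was not specific to the ΔCre vector. Median depths in GR-KO were 4370 UMIs in VLMCs, 6394 in astrocytes and 9467 in oligodendrocytes. Nr3c1 itself, counted over the whole gene so that a deleted exon cannot be seen, was at 257 CPM in VLMCs, 254 in astrocytes and 304 in endothelial cells. Over the 7 libraries it lay between 237 and 283 CPM, with 237 and 241 in NR GR-KO female and male, 244 and 253 in DR GR-KO female and male, 277 and 265.5 in NR GR-Con female and male and 283 in DR GR-Con male. The 4 GR-KO libraries lay under the 3 GR-Con libraries, by a log2 fold change of -0.16 (SE 0.20, edgeR likelihood ratio test over all genes, adjusted p = 0.999), and 163 of the 7096 genes tested (2.30%) did not overlap between the genotypes. Nr3c2, the mineralocorticoid receptor, was at 430.2 CPM. Of 16 GR target genes, Errfi1 and Angptl4 were highest in VLMCs, and Fkbp5, a co-chaperone induced by glucocorticoids, was at 298 CPM against 37.9 CPM in astrocytes and 426 CPM in microglia.

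VLMCs made up 0.0217% to 0.686% of the nuclei of a library. The share was 0.410 ± 0.279% (SD, n = 4) in DR and 0.293 ± 0.142% (n = 4) in NR, a difference of 0.117 percentage points (two-sided exact permutation test over 70 groupings, p = 0.514). Between GR-KO and GR-Con it differed by 0.0927 points (exact permutation test, p = 0.629). Without the DR GR-Con female library the differences were 0.247 points (exact permutation test, p = 0.171) and -0.00194 points (p = 0.971), the latter with its direction turned. None of these 4 differences passed the test, although the 7-library rearing difference was larger than the SD of either group (0.127 in DR, 0.142 in NR).

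VLMC nuclei differed in how many neuron transcripts they held, and in the 7 libraries compared NR libraries held more. A list of 10 neuron markers held, among others, the synaptic gene Snap25, the nuclear protein gene Rbfox3 and the glutamate transporter gene Slc17a7. These markers took 0.842% to 1.26% of VLMC UMIs in the 4 NR libraries and 0.152% to 0.301% in the 3 DR libraries, without overlap. The means were 1.065 and 0.213% (exact permutation test, p = 0.0571). For 3 libraries against 4 that is the smallest p of the form used, which doubles the smaller tail. The DR GR-Con female library, with 3 VLMC nuclei, went the other way at 1.13%. In excitatory neurons the share was between 1.71% and 1.97%. The smallest VLMC nucleus held 4690 UMIs in NR GR-Con male, 7218 in NR GR-KO male and 10555 in DR GR-Con female. In every other library it held 1407 to 1970 UMIs. The libraries without small VLMC nuclei were also those with the fewest microglia. The part of these missing small nuclei in the neuron-marker difference was not tested. The 14 VLMC markers took 0.725% of UMIs in NR and 1.24% in DR (p = 0.0571, exact permutation test), and in low-neuron nuclei, defined next, the direction turned, with 1.49% in NR and 1.36% in DR (exact permutation test, p = 0.40). In endothelial and mural nuclei the neuron markers took 0.583% to 1.11% and 0.121% to 1.74% over all libraries. Mural markers took 0.00586% to 0.0147% of VLMC UMIs in DR and 0.00276% to 0.00523% in NR (exact permutation test, p = 0.0571). In low-neuron nuclei they overlapped (exact permutation test, p = 0.229). The shares of astrocyte, oligodendrocyte, microglia and endothelial markers overlapped between DR and NR with all nuclei.

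The neuron transcripts were concentrated in some nuclei. In 309 VLMC nuclei these markers took less than 0.5% of UMIs (low-neuron nuclei), and in 51 they took 0.5% or more. The limit was chosen after the values were seen, and 40 nuclei lay between 0.25% and 0.5% and 7 between 0.5% and 0.75%. The 51 nuclei had a median of 24620 UMIs against 4155 in low-neuron nuclei, and a median of 38 UMIs of the 10 counted VLMC genes against 40. Slc6a13 had a UMI in 80.4% of the 51 and in 89.3% of the 309, Snap25 in 98.0% and 36.3%, and Slc17a7 in 84.3% and 10.7%. NR libraries held 44 of the 51 nuclei, which made up 16.1% to 40.5% of VLMC nuclei in NR and 1.54% to 2.89% in the 3 DR libraries compared, and carried 47.5% to 69.9% of VLMC UMIs in NR and 5.55% to 13.96% in those DR libraries. In the DR GR-Con female library they made up 66.7% of the 3 nuclei. In low-neuron nuclei the marker share was 0.117% in DR and 0.145% in NR, a description only, since these markers chose the nuclei. Each comparison below is given with all nuclei and with low-neuron nuclei.

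**Figure D2:**
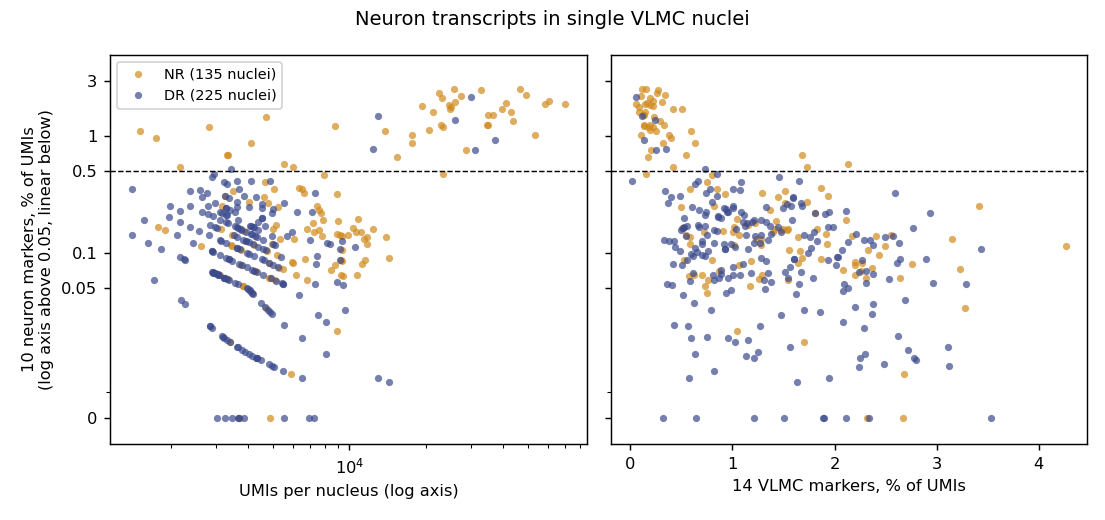
Each point is 1 VLMC nucleus, 135 from NR and 225 from DR libraries. The left panel plots UMIs per nucleus against the percent of UMIs from 10 neuron markers and the right panel the percent from 14 VLMC markers against it; the dashed line marks 0.5%, above which lie 44 NR and 7 DR nuclei.

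**Figure D3:**
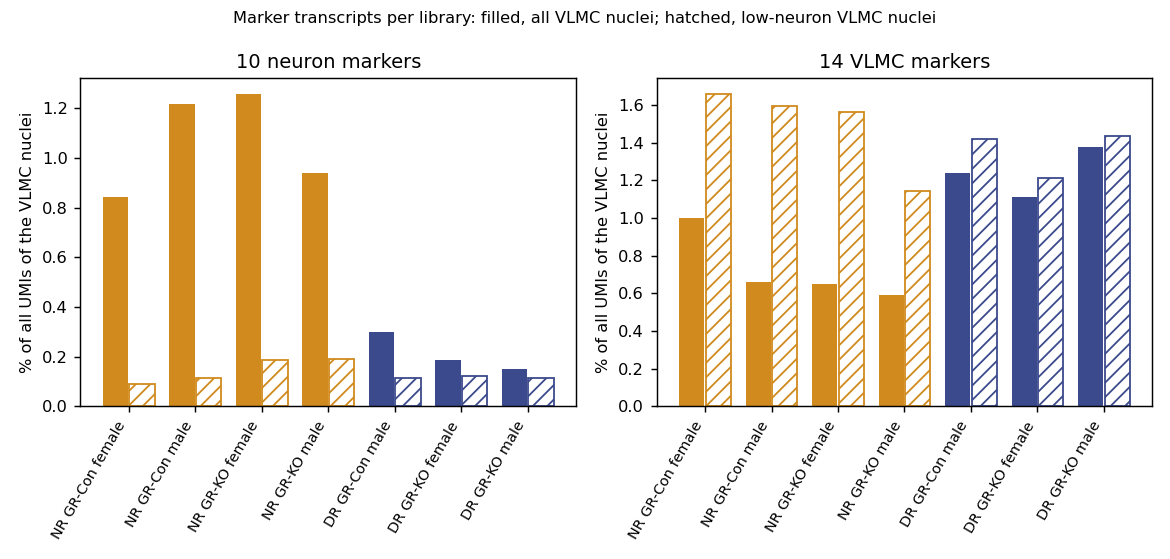
Percent of VLMC UMIs from 10 neuron markers and from 14 VLMC markers in each of the 7 libraries, as bars from 0. Filled bars are all VLMC nuclei and hatched bars low-neuron nuclei; neuron markers in all nuclei lie between 0.842% and 1.26% in NR and between 0.152% and 0.301% in DR.

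Rearing was compared over 3 DR and 4 NR libraries with genotype as a term, to ask which VLMC genes differ between animals raised in darkness and in light. With all nuclei, more genes of the matrix, transporter and fibroblast lists were called higher than lower in DR, and genes with a higher level in neurons were called lower. Of 7096 genes tested, 509 were higher and 921 lower in DR (20.2% called, edgeR likelihood ratio test, Benjamini-Hochberg adjusted p under 0.05). DESeq2 called 148 higher and 641 lower. With 20 nuclei drawn from each library, 31 were higher and 176 lower among 3016 tested. With low-neuron nuclei, 0 of 5336 genes passed (0.0% called), 297 had an unadjusted p under 0.05, and edgeR's quasi-likelihood test and DESeq2 also called 0. Without the NR GR-Con female library that count was 11, without NR GR-KO female 7 and without DR GR-Con male 1. A sex term in the low-neuron fit gave 2 higher and 22 lower genes. With nuclei of at most 15000 UMIs, 0 genes were higher and 9 lower. With all nuclei thinned to the UMI totals of the low-neuron nuclei, 352 were higher and 727 lower among 5155 tested. Of the 921 lower genes, 581 (63.1%) had a level at least 4-fold higher in excitatory neurons than in low-neuron VLMC nuclei, against 671 of all 7096 tested (9.46%). Of the 509 higher genes, 432 (84.9%) were at least 4-fold higher in low-neuron VLMC nuclei than in excitatory neurons, against 1174 of 7096 (16.5%). The share of neuron transcripts moved with rearing across the same libraries, and its part in the result was not tested beyond these values. Depth and the mitochondrial share also differed between libraries. Depth overlapped between DR and NR, with NR GR-Con female inside the DR range. Median UMIs per VLMC nucleus averaged 3838 in DR (3656 to 3952) and 7935 in NR (3819 to 11020, exact permutation test, p = 0.171), and 3823 and 6683 in low-neuron nuclei (exact permutation test, p = 0.171). The median percent of mitochondrial UMIs was 0 in DR GR-Con male and DR GR-KO male. It was 0.00322 in DR GR-KO female and 0.00878 to 0.0177 in the 4 NR libraries. At these depths such medians stand for very few mitochondrial UMIs per nucleus or none. They lie at the floor and depend on depth, so their order is no measured difference. The DR GR-Con female library, not compared, was at 0.0464. The part of the mitochondrial share in the result was not tested.

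**Figure D4:**
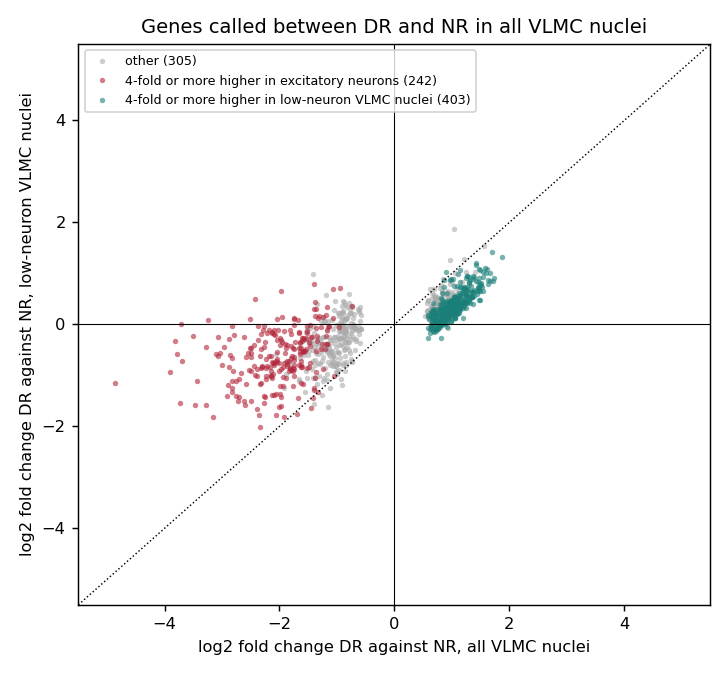
Log2 fold change DR against NR of the genes called with all VLMC nuclei (horizontal axis) against that in low-neuron nuclei (vertical axis), 1 point per gene. Red marks genes at least 4-fold higher in excitatory neurons, teal genes at least 4-fold higher in low-neuron VLMC nuclei, grey the others, and the dotted line equal values; the median of the lower genes tested in both moves from -1.41 to -0.47 and of the higher genes from 0.95 to 0.33.

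The VLMC genes themselves showed the contrast between both sets of nuclei. Slc6a13 was at 702, 758 and 839 CPM in DR GR-Con male, DR GR-KO female and DR GR-KO male, and at 366, 344, 390.3 and 296 CPM in NR GR-Con female, NR GR-Con male, NR GR-KO female and NR GR-KO male. The groups did not overlap, as was so for 2251 of the 7096 genes tested with all nuclei (31.7%), with a log2 fold change of 0.90 (SE 0.23, adjusted p = 0.00102, edgeR likelihood ratio test). In low-neuron nuclei Slc6a13 was at 792, 838 and 879 CPM in DR and 549, 832, 846 and 586 CPM in NR in the same order, so the ranges overlapped and the log2 fold change was 0.18 (SE 0.27, adjusted p = 0.999). Col1a2 was at 269, 274 and 433 CPM in DR and 246, 117, 120 and 161 CPM in NR, with the highest NR library just under the lowest DR library. On the log2 scale Col1a2 differed by 0.84 (adjusted p = 0.0353), and by 0.18 in low-neuron nuclei (adjusted p = 0.999). Lama1 had log2 fold changes of 1.01 (adjusted p = 0.0079) and 0.31 (adjusted p = 0.999), and Bmp6 of 0.89 (adjusted p = 0.0055) and 0.20 (adjusted p = 0.999). Ptgds did not pass in either set, at 0.36 (adjusted p = 0.42) and -0.45 (adjusted p = 0.861).

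Aldh1a1 and Efemp1 were among the higher genes, and their DR and NR libraries did not overlap in either set of nuclei, as was so for 227 of the 5305 genes tested in both sets (4.28%). Aldh1a1, which oxidises retinaldehyde to retinoic acid (chromosome 19, 20492715 to 20643465, mm10), was at 320.1, 424 and 325 CPM in DR and 183, 74.3, 107 and 77.5 CPM in NR. Its log2 fold change was 1.55 (SE 0.31, adjusted p = 1.155e-05, edgeR likelihood ratio test). In low-neuron nuclei Aldh1a1 was at 370, 473 and 339 CPM in DR and 269, 141, 248 and 143 CPM in NR, without overlap as for 359 of the 5336 genes tested there (6.73%), with a log2 fold change of 0.93 (SE 0.31) that did not pass (adjusted p = 0.747). Efemp1, a fibulin of the matrix (chromosome 11, 28853204 to 28926743), was at 142, 177 and 271 CPM in DR and 89.0, 61.6, 46.0 and 44.3 CPM in NR. Its log2 fold change was 1.53 (SE 0.33, adjusted p = 4.318e-05), and in low-neuron nuclei 1.04 (SE 0.37, adjusted p = 0.786), where DR lay at 165 to 282 CPM and NR at 73.6 to 160 CPM. Kl, which encodes klotho, was at 69.2, 110 and 76.7 CPM in DR and 17.0 to 30.4 CPM in NR, 1.69 on the log2 scale (adjusted p = 4.264e-06), and 1.42 in low-neuron nuclei (adjusted p = 0.656). Fkbp5 was at 393, 544 and 514 CPM in DR and 330, 253, 146 and 208 CPM in NR, 0.93 on the log2 scale (adjusted p = 0.0135), and 0.22 in low-neuron nuclei (adjusted p = 0.999).

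**Figure D5:**
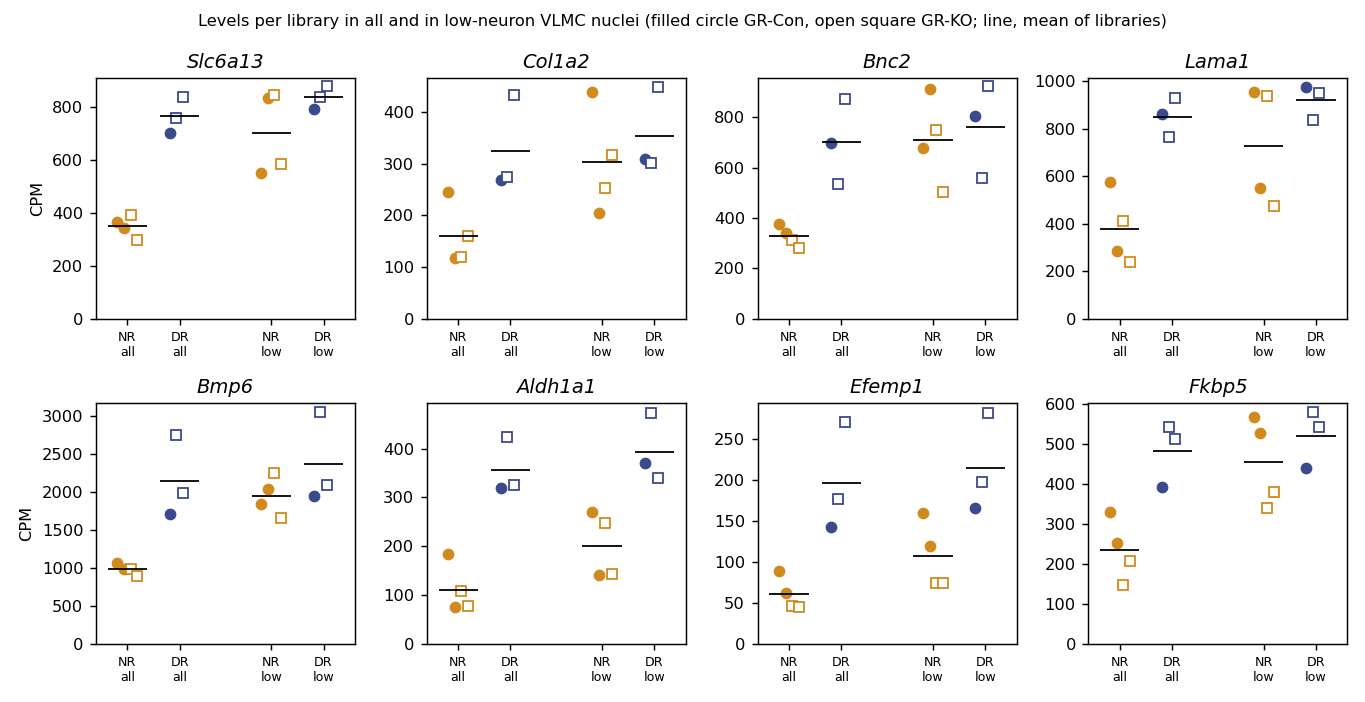
CPM of Slc6a13, Col1a2, Bnc2, Lama1, Bmp6, Aldh1a1, Efemp1 and Fkbp5 in the VLMC nuclei of each library, by rearing, with all nuclei and with low-neuron nuclei. Filled circles are GR-Con, open squares GR-KO and lines group means; Slc6a13 separates DR from NR with all nuclei and overlaps in low-neuron nuclei, while Aldh1a1 and Efemp1 do not overlap in either.

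By gene group with all nuclei, the calls among matrix, transporter and fibroblast lists were mostly higher in DR. Of all genes tested, 7.17% were called higher and 921 of 7096 lower, and the median was 0.03 on the log2 scale. Of the 1174 tested genes at least 4-fold higher in low-neuron VLMC nuclei than in excitatory neurons, 432 were called higher. The lists were not tested against that share. Among 13 VLMC markers tested, 6 were higher and 0 lower (median 0.75), the 6 being Bnc2, Col1a2, Fbln1, Slc6a13, Slc6a20a and Tbx18. Of 9 fibrillar collagens 3 were higher (median 0.84), of 9 basement membrane collagens 3 (0.73), of 10 laminins and nidogens 4 (0.75), and of 18 matrix glycoproteins 8 higher and 1 lower (0.98). Of 20 transporters, 10 were higher and 1, the bicarbonate transporter gene Slc4a10, lower (median 0.65), and of 16 transcription factors 9 were higher (0.85). The BMP ligand genes Bmp5, Bmp6 and Bmp7 and the co-receptor gene Tgfbr3 were also higher. Of 8 GR target genes 1, Fkbp5, was higher (median 0.41). In smaller lists, 5 of 10 matrix proteases and inhibitors were higher and 1 lower, 2 of 8 retinoic acid genes were higher (Aldh1a1 and Rarb), 4 of 9 PDGF and FGF genes, 2 of 5 WNT genes (Axin2 and Lef1), 2 of 4 prostaglandin genes (Pla2g4a and Ptgfr), and 1 each of 4 pial, 5 arachnoid, 6 insulin-like growth factor and 6 chemokine and immune genes. Of 3 steroid receptor genes 0 passed, of 14 clock genes 1 was lower (Npas2), and the 1 immediate early gene tested, Nr4a1, was lower. Of other cell types' markers, 2 of 4 astrocyte genes were higher and 1 lower, 1 of 5 oligodendrocyte genes was lower, 0 of 3 endothelial genes passed, the 1 mural gene tested, Vtn, was higher, and 0 dural or microglia genes could be tested. All 8 neuron markers tested were lower (median -2.01). Among all lower genes, those named with the largest falls were Hs6st3, a heparan sulfate sulfotransferase, and Kcnh5, a potassium channel. Hs6st3 was at -4.87 (adjusted p = 1.196e-16, edgeR likelihood ratio test) and in low-neuron nuclei at -1.15 (adjusted p = 0.837). Kcnh5 was at -4.46. The naming rule sets excitatory neurons against all GR-Con VLMC nuclei and removed 2 of the 921 lower genes. Against low-neuron VLMC nuclei 581 would be removed, so being named does not clear a gene of neuron transcripts. In low-neuron nuclei 0 genes of any list passed, and the medians were 0.09 for VLMC markers, 0.37 for basement membrane collagens, 0.04 for transporters, 0.10 for transcription factors and 0.05 for GR targets, beside -0.01 over all genes.

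Rearing was then compared within each genotype, where DR GR-Con was 1 library. In GR-Con, the genes called higher in DR with all nuclei did not pass in the quasi-likelihood test or DESeq2. DESeq2 gave no adjusted p for 4783 of the 8223 genes there, so it did not judge genes among them. In GR-Con, 36 genes were higher and 283 lower in DR (3.88% called of 8223), and 248 of the 283 (87.6%) were at least 4-fold higher in excitatory neurons, against 759 of the 8223 genes tested (9.23%). In low-neuron nuclei 0 of 6493 passed (0.0%), with 205 at an unadjusted p under 0.05, and DESeq2 and the quasi-likelihood test called 0, while a sex term gave 12 calls. Without the NR GR-Con male library the all-nuclei count was 113, and the low-neuron count was 12 without NR GR-Con female and 5 without NR GR-KO female. In GR-KO, 424 were higher and 792 lower (19.9% called of 6109). Of the 792, 531 (67.1%) were at least 4-fold higher in excitatory neurons, against 587 of the 6109 genes tested (9.61%). With all nuclei DESeq2 called 49 higher and 391 lower, and an equal number of nuclei per library gave 169 higher and 482 lower. In low-neuron nuclei 1 of 4592 passed (0.0218%), Zfp804b, a zinc finger gene, with a log2 fold change of -2.58 (SE 0.50, adjusted p = 0.00124). The neuron markers moved with it: in these GR-KO low-neuron nuclei they took 0.188 and 0.189% of UMIs in NR female and male and 0.120 and 0.116% in DR female and male. Snap25 and Syt1, a synaptotagmin of synaptic vesicles, were at -1.38 (SE 0.42, adjusted p = 0.150, unadjusted p = 0.00102) and -1.27 (SE 0.43, adjusted p = 0.221, unadjusted p = 0.00312, edgeR likelihood ratio test). The part of neuron transcripts in the Zfp804b difference was not tested. The quasi-likelihood test and DESeq2 called 0 genes there, and a sex term gave 4. Without the NR GR-KO female library that count was 87 higher and 222 lower, without NR GR-KO male 43 and 9, and without DR GR-KO female 5 and 15. The all-nuclei count was 708 without DR GR-KO male and 737 without DR GR-KO female. The higher genes named in GR-KO with all nuclei included Fbln5 at 2.40, Igfbp7, an insulin-like growth factor binding protein, at 2.18 and Cp, the copper carrier ceruloplasmin, at 1.95. In low-neuron nuclei they did not pass, at 1.60 (adjusted p = 0.164), 1.99 (adjusted p = 0.435) and 1.32 (adjusted p = 0.248).

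GR-KO was compared with GR-Con to ask whether VLMCs differ when astrocytes are given Cre. In NR, 0 of 6694 genes passed with all nuclei (0.0% called), with 205 at an unadjusted p under 0.05, and DESeq2 and the quasi-likelihood test called 0. Leaving out any 1 of the 4 libraries gave 4 calls (without NR GR-Con female), 20 (NR GR-Con male), 19 (NR GR-KO female) or 18 (NR GR-KO male). With low-neuron nuclei 1 of 3493 passed (0.0286%), Zfp804b, at 9.97 and 0 CPM in GR-Con female and male and at 106 and 118 CPM in GR-KO female and male, and it did not pass with all nuclei (0.61, adjusted p = 1). With all nuclei Zfp804b had 1 and 59 UMIs in NR GR-Con female and male, 38 of the 59 in 1 nucleus. In NR GR-KO female and male it had 70 and 41 UMIs, of which 21 and 15 were in 1 nucleus each. The Zfp804b call by rearing within GR-KO used the same NR GR-KO libraries. The neuron markers in the low-neuron nuclei were also higher in GR-KO. They took 0.188 and 0.189% of UMIs in NR GR-KO female and male against 0.0918 and 0.113% in NR GR-Con female and male. Their part in the Zfp804b call was not tested. Over the 7 libraries the neuron markers took 0.153% ± 0.0408 in GR-KO (SD, n = 4) and 0.107% ± 0.0129 in GR-Con (SD, n = 3). In DR the genotypes were close, at 0.1203 and 0.1155% in GR-KO female and male and 0.1153% in GR-Con male. These values are a description because the markers chose the nuclei. This count of 1 became 68 without NR GR-KO female, 19 without NR GR-Con male, 9 without NR GR-Con female and 3 without NR GR-KO male. The quasi-likelihood test and DESeq2 called 0 in these low-neuron nuclei, and a sex term gave 14 calls with all nuclei and 27 with low-neuron nuclei. In DR, 0 genes were higher and 5 lower in GR-KO (0.0608% called of 8223), and with low-neuron nuclei 2 were lower (0.0308% of 6493), both among the 5. The quasi-likelihood test and DESeq2 called 0 in both sets, the likelihood ratio test over all nuclei with at least 3 VLMC genes called 0, and a sex term gave 13 and 4 calls. Without NR GR-KO female the DR count was 26, and without DR GR-KO male 2, and the low-neuron count was 13 without NR GR-KO female, 12 without NR GR-KO male, 4 without NR GR-Con male and 0 without DR GR-KO male. The 5 rest on few nuclei: all 47 UMIs of Otogl and all 24 of Lmx1a were in the same nucleus of the DR GR-Con male library, which had 4872 UMIs and 0.0205% of them from VLMC markers, 34 of 43 UMIs of Sorcs3 and 90 of 125 of Tafa1 were in 1 nucleus each, and Pde3b had 55 UMIs in 10 nuclei. With an equal number of nuclei per library the 5 were not called again, and Sorcs3 turned direction to 3.008 on the log2 scale. Over both rearing conditions, 0 of 7096 genes passed with all nuclei (0.0%), with 229 at an unadjusted p under 0.05. With low-neuron nuclei 0 of 5336 passed (0.0%), with 193 under that limit. The quasi-likelihood test and DESeq2 also called 0 in both, and a sex term gave 1 call in each. Without DR GR-Con male the low-neuron count was 9. Of the 16 GR target genes, 0 passed in any of the 3 comparisons in either set of nuclei, with medians of -0.34 over 7 tested in NR, 0.23 over 9 in DR and -0.07 over 8 in both. Fkbp5 differed by -0.68 (SE 0.35, adjusted p = 1) in NR. The gene with the smallest p over both conditions was Rassf2, a Ras-association protein, at -0.999 (SE 0.25, adjusted p = 0.458).

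The rearing difference in GR-KO minus that in GR-Con passed for 7 of 8223 genes with all nuclei (0.0851% called), 1 above and 6 below 0, and for 8 of 6493 with low-neuron nuclei (0.123%), 1 of which was among the 7. The quasi-likelihood test and DESeq2 called 0 of them in either set, a sex term gave 16 and 11 calls, and 0 passed without DR GR-KO male and 26 without NR GR-Con male (all nuclei). With low-neuron nuclei 61 passed without NR GR-KO female, 0 without DR GR-KO female and 15 without NR GR-KO male. Gpc4, a glypican of the cell surface, was at 23.7, 70.1 and 54.1 CPM in DR GR-Con male, DR GR-KO female and DR GR-KO male and at 41.9, 27.6, 2.79 and 11.1 CPM in NR GR-Con female, NR GR-Con male, NR GR-KO female and NR GR-KO male. The difference of differences of Gpc4 was 3.80 on the log2 scale (SE 0.89, adjusted p = 0.0398, edgeR likelihood ratio test), on 2 to 21 UMIs a library, and was at 3.54 in low-neuron nuclei (adjusted p = 0.188). St18, whose fitted value of -12.74 (adjusted p = 0.00258) depends on the prior count and is no measured size, had 41 of its 46 UMIs in 1 nucleus of DR GR-Con male, all 32 UMIs of NR GR-KO male in 1 nucleus, and 0 in both DR GR-KO libraries. In DR GR-Con male, 63 of the 82 UMIs of Slit3 and 10 of the 12 UMIs of Trpc5 were in 1 nucleus each. With an equal number of nuclei per library the Trpc5 value turned from -4.366 to 1.897. The only DR GR-Con library compared was male, and fits with a sex term left out X- and Y-linked genes. For such genes, the X-linked Gpc4 and Trpc5 among them, sex and group cannot be told apart.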

How the data were processed

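Nuclei (10x Genomics Single Cell 3' v4) were processed by the authors with Cell Ranger 8.0.1 against mm10 with added eGFP and with Seurat 5.3.0. Nuclei with fewer than 500 or more than 70000 gene counts were removed, as were DoubletFinder doublets per sample and clusters lacking markers. The authors deposited raw UMI counts, the cell types used here and the percent of mitochondrial UMIs per nucleus. VLMC counts were summed per library, and genes tested with edgeR 4.0.16 in R 4.3.3 (likelihood ratio test, TMM, filterByExpr, Benjamini-Hochberg, called under 0.05). The quasi-likelihood test, DESeq2 1.42.0, RLE normalization, no low-count filter, a sex term, equal nuclei and each library left out were alternatives, and low-neuron nuclei, the UMI limit and thinning were chosen after seeing the data. SE was the log2 fold change over the root of the likelihood ratio. Libraries are separate animals per the labels. Exact permutation tests used SciPy 1.17.1. Named genes were members of 28 gene lists, the 30 identity genes, and up to 10 called genes per direction with the largest fold change, mean log2 CPM of at least 6, no overlap between groups, not sex-linked and not 4-fold higher in excitatory neurons than in GR-Con VLMCs; where nothing was called, the 5 per direction with the smallest p. Where few genes were called, and for the interaction, called genes outside these limits could be named too, sex-linked ones included. Interaction genes called only with low-neuron nuclei are given as a count. Fits with a sex term left out genes of the X and Y chromosomes. Members and lists were chosen with earlier results of these data known. Tests were checked on simulated data.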

Additional observations from a re-analysis of the deposited data

Results flagged for a closer look

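For 7 genes the rearing difference in GR-KO VLMCs differed from that in GR-Con VLMCs by a test of the difference itself (edgeR likelihood ratio test, all nuclei). On the log2 scale, GR-KO minus GR-Con, the values were -12.74 for St18, -4.366 for Trpc5, -3.764 for Ubash3b, -3.716 for 4933406I18Rik, -2.768 for Slit3, -2.519 for Tafa1 and 3.803 for Gpc4. The GR-Con value rests on 1 DR library, in which 41 of 46 UMIs of St18, 63 of 82 of Slit3, 10 of 12 of Trpc5 and 90 of 125 of Tafa1 were in 1 nucleus each. St18 had 0 UMIs in both DR GR-KO libraries, so its fitted value depends on the prior count and is no measured size. With an equal number of nuclei per library Trpc5 turned direction, to 1.897. Gpc4 and Trpc5 are X-linked and that DR library is male, so for them sex and group cannot be told apart. With low-neuron nuclei 1 of the 7 was called, and neither the quasi-likelihood test nor DESeq2 called any.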

How the results depend on the processing

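DR GR-Con was 1 library of 104 nuclei, counts per gene were low, and values rest on 191053 to 717380 UMIs a library. By replicate number, no paired analysis was possible because the library names carry sex and not the labels' replicate numbers. Sex was fitted as a term, with the counts given below. Counts are called genes, by genotype (within NR, within DR, over both), by rearing (within GR-Con, within GR-KO, over both) and for the interaction. A sex term gave 14 in NR, 13 in DR, 1 over both and 16 for the interaction, and in low-neuron nuclei 27, 4 and 1 by genotype and 12, 4 and 24 by rearing. An equal number of nuclei gave 10 and 79 by genotype, 28, 651 and 207 by rearing and 126 for the interaction. At most 15000 UMIs gave 3 and 2 by genotype and 2, 5 and 9 by rearing. Thinning gave 2 in NR and 2 for the interaction. Low-neuron nuclei gave 1 and 2 by genotype and 0, 1 and 0 by rearing. The quasi-likelihood test gave 0 for genotype in DR, 74 for rearing in GR-Con and 0 for the interaction, and 0 in low-neuron nuclei for each call. DESeq2 gave 0, 124, 440, 789 and, for the interaction, 0, and 0 in low-neuron nuclei. Requiring 3 markers gave 0 for genotype in DR, and no low-count filter gave 18 for the interaction and 3 for genotype over both. Leaving out 1 library gave 4 to 20, 2 to 26 and 0 to 2 by genotype, 113 to 469, 708 to 1040 and 1023 to 1677 by rearing, and 0 to 26 for the interaction, and in low-neuron nuclei 3 to 68, 0 to 13, 0 to 9, 0 to 12, 1 to 309, 0 to 11 and 0 to 61. With any library but DR GR-Con female left out, the share of VLMCs differed by 0.02525 to 0.184 points by rearing and 0.06076 to 0.2195 by genotype, and without that library by 0.2467 and -0.001944. Reversed values were that genotype share, 0.04657 points for the neuron marker share by genotype in low-neuron nuclei, 3.008 for Sorcs3, -0.2247 for Slc1a5 and 1.897 for Trpc5 with an equal number of nuclei, 0.1415 for Nell1 at most 15000 UMIs, and 1.427 for Cdh12 and 0.008965 for Lingo2 in low-neuron nuclei. The causes were not tested.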
